A study of Mus musculus with 12 samples.

Results

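The 10 genes of de novo lipogenesis were followed through RNA sequencing of epididymal white adipose tissue (eWAT), the fat pad beside the epididymis. The members were Acly, Me1, Acaca, Acacb, Fasn, Elovl6, Scd1, Scd2, Srebf1 and Mlxipl, and each was chosen by its symbol, which matched 1 of the 23474 rows of the expression table. The samples came from male C57BL/6J mice fed from 5 weeks of age for 12 weeks and were taken at 17 weeks. By the study's methods, which describe the HFD and TJ groups, the mice had fasted for 12 hours beforehand. The ND group ate a normal diet and the HFD group a high-fat diet. The GT group ate the high-fat diet with 0.25% (w/w) ethanol extract of green tea, and the TJ group ate it with 3% (w/w) Taeeumjowuitang, a Korean herbal prescription made of water extracts of several plants. Each group of 10 mice had 3 libraries, so 12 libraries were compared. In the study's methods 3 mice, as many as the libraries, were picked at random per group for HFD and for TJ, and for the ND and GT groups the mice per library are not given in the sources used here. Levels are FPKM, fragments per kilobase of transcript scaled to the fragments mapped in the library, so levels of different genes can be set side by side.

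De novo lipogenesis turns glucose carbon into fatty acids in the cytosol of adipocytes and hepatocytes. ATP citrate lyase (Acly) splits exported citrate into acetyl-CoA, malic enzyme (Me1) supplies NADPH, acetyl-CoA carboxylase makes malonyl-CoA, and fatty acid synthase (Fasn) builds palmitate from it. Elovl6 then lengthens palmitate, and the stearoyl-CoA desaturases Scd1 and Scd2 place a double bond in the saturated products. Insulin acts on these genes largely through SREBP-1c, encoded by Srebf1, and glucose through ChREBP, encoded by Mlxipl. Expression of the pathway in white fat is known to follow feeding and insulin sensitivity.

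Approximate depth, read from the smallest steps of the FPKM values, lay between 9800000 and 19100000 fragments per library. The FPKM values of all genes summed to 527904 to 552100 in the HFD libraries, 544881 to 555804 in GT and 574984 to 725245 in TJ. In ND replicates 1, 2 and 3 the sums were 1002765, 608819 and 535653. These sums were not made equal before the main tests, and scaled fits are given as alternatives. ND replicate 1 stood apart from the other 11 libraries. Its summed level of 8 testis germ cell markers was 95944 FPKM and that of 8 epididymis markers 15672 FPKM, while its summed level of 10 adipocyte markers was 4363 FPKM against 21340 to 61631 FPKM elsewhere. HFD replicate 2 also held epididymis markers, at 1662 FPKM, and testis markers stood at 2731 FPKM in ND replicate 3 and 1928 FPKM in HFD replicate 1. Differences from the ND group are therefore given with and without ND replicate 1. The 10 macrophage markers summed to 3824 to 5388 FPKM in the HFD group, 1402 to 3422 FPKM in the GT group, 750 to 2562 FPKM in the TJ group and 68.1 to 565 FPKM in the ND group. In bulk tissue, fewer cells of a type and less RNA per cell cannot be told apart.

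**Figure D1:**
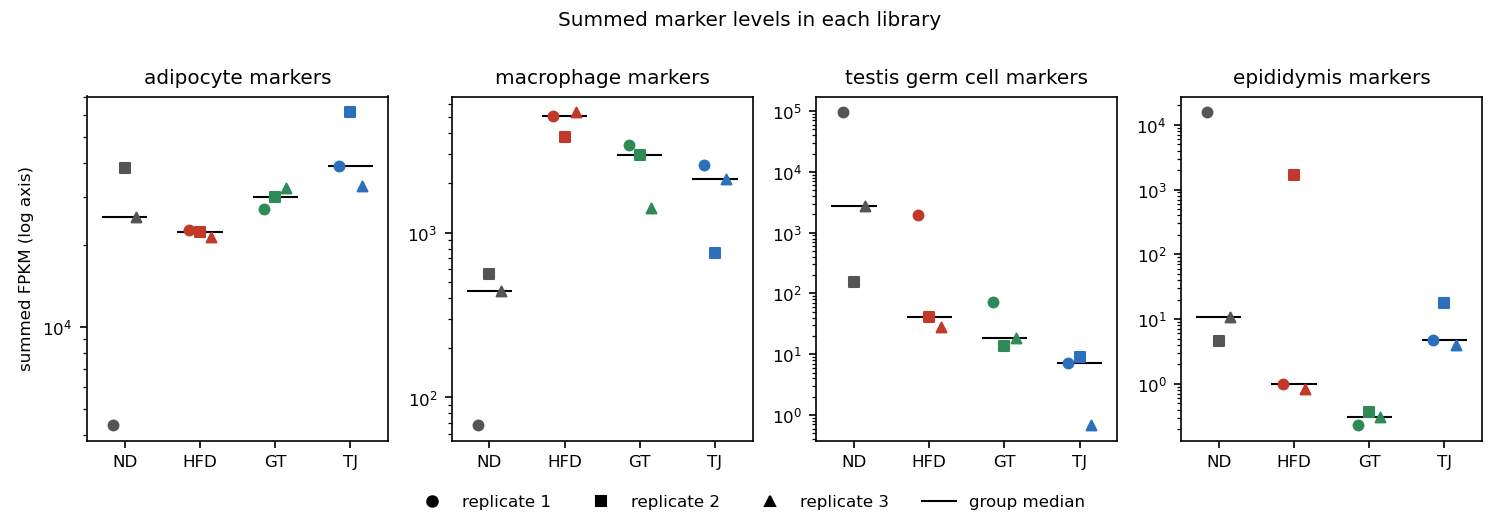
Summed FPKM (log axis) of the adipocyte, macrophage, testis germ cell and epididymis marker lists in each library, by group, with marker shape for the replicate and a line at the group median. ND replicate 1 had the lowest adipocyte sum, 4363 FPKM, and the highest testis and epididymis sums, while macrophage sums were highest in the HFD group.

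Acly and Me1 feed the pathway with acetyl-CoA and NADPH. Acly (ENSMUSG00000020917; chr11:100476353-100528000, minus strand, GRCm38) stood at 29.3, 59.3 and 71.1 FPKM in the ND group, 80.9, 104 and 91.1 FPKM in the HFD group, 67.7, 75.2 and 68.0 FPKM in the GT group and 40.9, 23.3 and 57.2 FPKM in the TJ group. The HFD libraries were the highest for Acly and overlapped with no other group, and every TJ library lay below every GT library. Me1 (ENSMUSG00000032418; chr9:86581371-86695953, minus strand) measured 36.5, 228 and 134 FPKM in the ND group, 229, 241 and 231 FPKM in the HFD group, 258, 226 and 210 FPKM in the GT group and 181, 123 and 179 FPKM in the TJ group. All 3 TJ libraries of Me1 lay below all HFD and GT libraries, and the ND libraries ranged from below the TJ libraries to just under the HFD libraries. The strand of the reads is not stated in the sources used here, and Me1 overlaps A330041J22Rik on the opposite strand.

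Acaca and Acacb encode the acetyl-CoA carboxylases, the first working in the cytosol for fatty acid synthesis and the second at the mitochondrial surface, where its malonyl-CoA holds back fatty acid import through carnitine palmitoyltransferase. Acaca (ENSMUSG00000020532; chr11:84129672-84401651, plus strand) measured 8.002, 74.2 and 85.8 FPKM in the ND group, 21.8, 27.5 and 26.2 FPKM in the HFD group, 23.4, 48.5 and 33.6 FPKM in the GT group and 23.8, 27.1 and 23.3 FPKM in the TJ group. ND replicates 2 and 3 stood above every library of the 3 groups on the high-fat diet, and ND replicate 1 below all of them. Acacb (ENSMUSG00000042010; chr5:114146535-114250761, plus strand) measured 4.18, 34.1 and 49.1 FPKM in the ND group, 16.0, 17.4 and 14.5 FPKM in the HFD group, 24.4, 27.0 and 33.3 FPKM in the GT group and 20.96, 42.5 and 23.5 FPKM in the TJ group. For Acacb the HFD libraries lay below all GT and TJ libraries. Over 6931 aligned coding bases the carboxylase genes were 71.3% identical, and the longest run they shared was 29 bases, shorter than the 100-base reads. Acaca overlaps Gm11437 on the opposite strand.

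Fasn builds palmitate and Elovl6 extends it by a two-carbon unit. Fasn (ENSMUSG00000025153; chr11:120805846-120824547, minus strand) stood at 34.5, 333 and 287 FPKM in the ND group, 393, 319 and 326 FPKM in the HFD group, 497, 433 and 412 FPKM in the GT group and 280, 229 and 333 FPKM in the TJ group. The GT libraries were the highest for Fasn and overlapped with no other group. Elovl6 (ENSMUSG00000041220; chr3:129532355-129638495, plus strand) was the lowest expressed member in 11 of the 12 libraries (in ND replicate 1 Acacb and Mlxipl were lower), with 5.29, 5.37 and 5.54 FPKM in the ND group, 4.17, 7.52 and 6.84 FPKM in the HFD group, 4.25, 3.38 and 3.60 FPKM in the GT group and 1.94, 0.992 and 2.79 FPKM in the TJ group. All TJ libraries of Elovl6 lay below all others. In ND replicate 1 its level was close to that of the other ND libraries, with a CV of 2.38% over the 3.

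Scd1 and Scd2 encode stearoyl-CoA desaturases and lie on opposite strands of chromosome 19. Scd1 (ENSMUSG00000037071; chr19:44394455-44407879, minus strand) was the most abundant member, making up 66.3% of the summed FPKM of the 10 genes in ND replicate 1 and 77.4 to 92.7% in the other libraries. It measured 306, 11074 and 9242 FPKM in the ND group, 3389, 4571 and 3545 FPKM in the HFD group, 7249, 8867 and 12114 FPKM in the GT group and 6936, 5611 and 8264 FPKM in the TJ group. Scd2 (ENSMUSG00000025203; chr19:44293674-44306864, plus strand) measured 21.7, 23.0 and 36.9 FPKM in the ND group, 143, 181 and 154 FPKM in the HFD group, 183, 139 and 117 FPKM in the GT group and 71.9, 14.3 and 90.8 FPKM in the TJ group. Thus the HFD libraries were below all GT and TJ libraries for Scd1 and above all TJ and ND libraries for Scd2.

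The coding sequences of Scd1 and Scd2 were 90.3% identical over 1065 aligned bases, with 103 mismatches, so some reads could come from either gene. The longest run present in both is 147 bases, longer than a 100-base read, and is shown because a read pair that lies wholly within it cannot be assigned. It covers coding bases 523 to 669 of Scd1 (exons 4 and 5, chr19:44400341-44401805) and 532 to 678 of Scd2 (exons 4 and 5, chr19:44299702-44301245).
Scd1 and Scd2, shared run: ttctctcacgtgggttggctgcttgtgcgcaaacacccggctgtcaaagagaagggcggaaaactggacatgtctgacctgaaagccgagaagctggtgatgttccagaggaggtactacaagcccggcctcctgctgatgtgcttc
The 90-base window within 1 exon that differs most has 30 mismatches, in capitals below. It is shown because reads from it can tell Scd1 from Scd2, and other Scd genes were not aligned. It lies in exon 2 of both, at chr19:44406621-44406710 (minus strand) for Scd1 and chr19:44294963-44295052 (plus strand) for Scd2, in GRCm38.
Scd1: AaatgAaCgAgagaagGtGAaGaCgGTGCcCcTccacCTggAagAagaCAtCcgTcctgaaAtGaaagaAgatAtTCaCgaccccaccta
Scd2: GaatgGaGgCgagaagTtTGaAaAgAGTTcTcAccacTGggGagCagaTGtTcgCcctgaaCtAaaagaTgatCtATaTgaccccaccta
The study's methods state that reads matching several places were shared out by the multi-read correction of Cufflinks, which estimates the shares. Scd1 stood at 14.1 to 480 times the level of Scd2, so a small share of misplaced Scd1 reads would weigh on Scd2. The levels of the genes went in opposite directions between the HFD and TJ libraries, where every TJ library was above every HFD library for Scd1 and below it for Scd2.

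Srebf1 and Mlxipl encode the transcription factors that drive the enzymes. Srebf1 (ENSMUSG00000020538; chr11:60199089-60222581, minus strand) measured 10.9, 96.1 and 139 FPKM in the ND group, 88.0, 87.9 and 64.6 FPKM in the HFD group, 110, 117 and 179 FPKM in the GT group and 91.2, 94.1 and 101 FPKM in the TJ group. The HFD libraries lay below all GT and TJ libraries, by a small margin in the TJ group. Mlxipl (ENSMUSG00000005373; chr5:135089890-135138382, plus strand) measured 5.20, 14.5 and 26.8 FPKM in the ND group, 14.8, 18.1 and 12.5 FPKM in the HFD group, 16.6, 13.9 and 18.2 FPKM in the GT group and 21.03, 17.9 and 23.9 FPKM in the TJ group, and its groups overlapped in every comparison. Both genes have alternative starts that a value per gene adds together, and Srebf1 overlaps Rai1 on the opposite strand. The abundance of these transcripts does not measure the activity of the proteins, since SREBP-1c is cleaved and ChREBP is regulated by glucose metabolites.

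**Figure D2:**
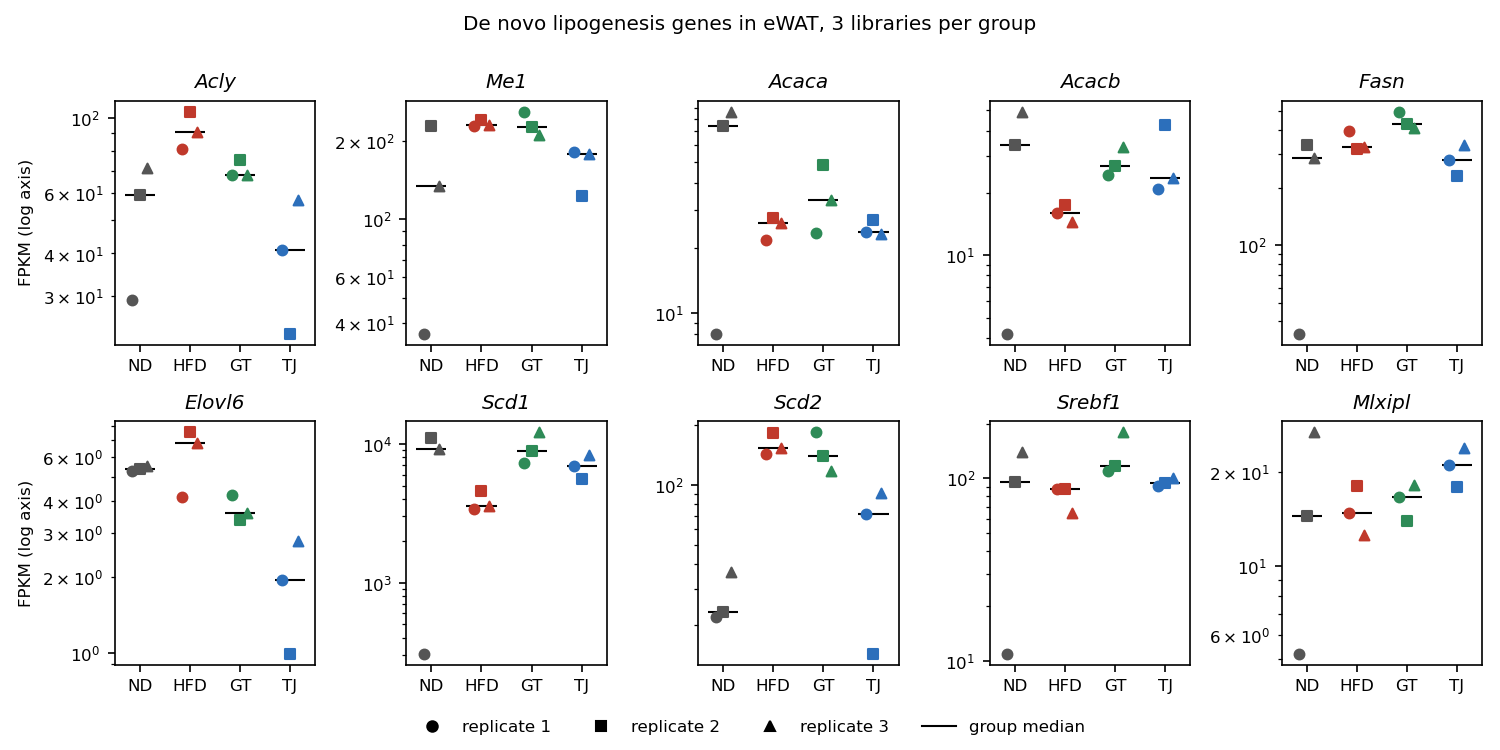
FPKM (log axis, with its own range in each panel) of the 10 members in each of 3 libraries per group, with marker shape for the replicate and a line at the group median. ND replicate 1 was the lowest of the 12 libraries for 7 of the members drawn, Scd1 included at 306 FPKM. HFD libraries were highest for Acly, and TJ libraries were lowest for Elovl6.

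Bases upstream of the starts were read from RefSeq windows on GRCm38.p6, which held 12 windows for 8 members, Scd1 and Scd2 not among them. Motifs were searched on both strands in the 250 bases before each start: the E-box CACGTG, the sterol response element TCACNCCAC, CCAAT and the GC box GGGCGG, none of which contains another. Of the 12 windows, 1 held an E-box, found in 6.02% of all 32851 windows, and 1 held a sterol response element, found in 1.05% of them, both windows being those of Mlxipl. CCAAT was present in 6 of the 12 against 33.8% of all windows, and the GC box in 5 of the 12 against 32.7%, with several windows sharing a gene. The Mlxipl windows are shown since they carry the only E-box and sterol element, and those of Acly and Elovl6 since these genes fell in the TJ group. Capitals mark matches to any of the motifs.
Mlxipl, upstream start, chr5:135089640-135089889, plus strand: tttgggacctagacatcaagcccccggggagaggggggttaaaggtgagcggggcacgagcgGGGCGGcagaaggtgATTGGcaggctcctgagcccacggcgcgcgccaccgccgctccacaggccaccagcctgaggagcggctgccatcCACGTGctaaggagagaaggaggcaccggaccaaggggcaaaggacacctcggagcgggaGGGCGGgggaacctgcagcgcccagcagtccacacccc
Mlxipl, downstream start, chr5:135106641-135106890, plus strand: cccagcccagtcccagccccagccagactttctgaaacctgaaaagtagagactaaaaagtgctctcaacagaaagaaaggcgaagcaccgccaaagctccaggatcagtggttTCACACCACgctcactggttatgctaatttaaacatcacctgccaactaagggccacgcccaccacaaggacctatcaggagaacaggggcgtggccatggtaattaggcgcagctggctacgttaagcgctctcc
Acly, chr11:100528001-100528250, minus strand: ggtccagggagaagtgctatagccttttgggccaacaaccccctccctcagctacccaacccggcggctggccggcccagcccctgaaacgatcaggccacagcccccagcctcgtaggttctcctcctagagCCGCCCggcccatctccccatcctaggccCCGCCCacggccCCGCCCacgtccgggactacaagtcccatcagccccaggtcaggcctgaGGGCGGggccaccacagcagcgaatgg
Elovl6, chr3:129532136-129532385, plus strand: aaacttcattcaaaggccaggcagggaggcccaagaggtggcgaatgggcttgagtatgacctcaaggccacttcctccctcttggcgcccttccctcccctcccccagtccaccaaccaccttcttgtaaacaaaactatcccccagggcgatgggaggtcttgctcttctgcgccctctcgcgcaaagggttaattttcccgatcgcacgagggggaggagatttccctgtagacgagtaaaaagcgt
The Acly window had 4 GC boxes, and the Elovl6 window held no match to the motifs searched.

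The comparison of the HFD group with the ND group asks what the high-fat diet changed in the pathway. Only Scd2 passed the test, being 2.54 ± 0.317 higher in the HFD group on the log2(FPKM + 1) scale (estimate ± SE, n = 3 per group, limma adjusted p = 0.0260). Scd2 averaged 27.2 ± 8.39 FPKM in ND libraries and 159 ± 19.7 FPKM in HFD libraries (SD, n = 3). Acly, Me1 and Scd2 were the 3 of 10 members whose HFD and ND libraries did not overlap, as was so for 26.4% of genes. Called means an adjusted p under 0.05 and a fold of at least 1.5, and 1.77% of the 14430 genes tested were called here, beside 1 of the 10 members. With the replicate number as a block no member was called, and Scd2 had an adjusted p of 0.120 by limma. The Scd2 call was also lost in 5 of the 6 fits without 1 library, those without ND replicate 2 or 3 or any HFD replicate, where its difference was 2.44 to 2.77 (limma adjusted p from 0.0782 to 0.262) and 24, 23, 0, 0 and 0 genes were called in all, and with libraries centred on the adipocyte markers (2.01, adjusted p = 0.977, with 1 gene called). The other 9 members had wide intervals, such as -3.26 to 3.80 for Scd1, and ND replicate 1 lay far below the other ND libraries for most of them. The macrophage markers were higher in the HFD group too, with 4 of 10 called and a median log2 difference of 4.34 (10 of 10 and 3.38 without ND replicate 1), and their part in the Scd2 result was not tested.

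Without ND replicate 1 the same comparison called 4 of the 10 members, beside 15.4% of all genes tested. Scd2 was 2.40 ± 0.229 higher in the HFD group (limma adjusted p = 0.00354). Acaca fell by 1.63 on the log2 scale (SE 0.151, limma adjusted p = 0.00318), and Scd1 and Acacb fell too, with differences of -1.41 for Scd1 (SE 0.206, adjusted p = 0.0120) and -1.31 for Acacb (SE 0.192, adjusted p = 0.0120). The 2 ND libraries left averaged 80.0 FPKM for Acaca and 10158 FPKM for Scd1, against 25.1 ± 3.01 FPKM and 3835 ± 642 FPKM (SD, n = 3) in the HFD group. Fasn differed by 0.15 ± 0.149 and Elovl6 by 0.12 ± 0.261, neither of which passed the test. These calls depended on the scaling. With libraries centred on the adipocyte markers Fasn (0.74, limma adjusted p = 0.00881), Me1 (1.004, adjusted p = 0.00872) and Acly (1.08, adjusted p = 0.0162) were called higher as well and Acacb (-0.72, adjusted p = 0.0920) was not called. That centring called 4297 of 13661 genes higher and 126 lower. With median-of-ratios scaling Scd1 (-1.46, limma adjusted p = 0.0528) was not called, and with HFD replicate 2 left out too Acacb (-1.37) was not. In the unscaled fit that left out only ND replicate 1, 5 of the 10 adipocyte markers were called lower in the HFD group. The median log2 difference over that list was -0.71. Of the stromal progenitor markers 4 of 8 were called higher (median 0.50), and of the mesothelial markers 3 of 6 were called lower (median -1.45). The part of these cell types in the Scd2, carboxylase and Scd1 differences was not tested. The values without ND replicate 1 rest on 2 ND libraries, and that library was left out after its marker levels were seen. With the replicate number as a block as well, which leaves HFD replicate 1 without a partner, 2 members were called, Scd2 at 2.48 (limma adjusted p = 0.0347) and Acaca at -1.54 (adjusted p = 0.0392), while Scd1 at -1.33 (adjusted p = 0.158) and Acacb at -1.31 (adjusted p = 0.0984) did not pass.

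The comparison of the GT group with the HFD group asks what green tea extract changed under the high-fat diet. Scd1 was higher in the GT group by 1.28 ± 0.212 on the log2(FPKM + 1) scale and Acacb by 0.78 ± 0.136 (limma adjusted p = 0.0379 for each). Group means were 9410 ± 2478 FPKM against 3835 ± 642 FPKM for Scd1 and 28.2 ± 4.59 FPKM against 16.0 ± 1.45 FPKM for Acacb (SD, n = 3). These 2 of 10 members stand beside 3.63% of 12766 genes called. Srebf1 (0.73 ± 0.216, limma adjusted p = 0.0903), Fasn (0.37 ± 0.125, adjusted p = 0.113) and Acly (-0.38 ± 0.117, adjusted p = 0.0983) did not pass, although their libraries did not overlap. With Scd1 and Acacb these made 5 of 10 members without overlap, against 36.7% of all genes. Scd2 differed by -0.13 ± 0.180, with an interval from -0.56 to 0.29, and Me1 by -0.02 ± 0.104, with an interval from -0.26 to 0.23. Both calls were lost without any 1 of the HFD replicates and without GT replicate 2 or 3, where the log2 difference ranged from 1.08 to 1.45 for Scd1 and from 0.66 to 0.87 for Acacb over the 6 such fits. In the 5 fits that lost them, 4 to 66 genes were called in all. Both were also lost without the filter on low levels (limma adjusted p = 0.202 for Scd1 and 0.0715 for Acacb), without the mean-variance trend (0.0572 and 0.0574) and with all 12 libraries in 1 fit (1 gene called in all). With libraries centred on the adipocyte markers Scd1 (0.81) was still called and Acacb (0.31) was not, and Elovl6 (-1.04) and Acly (-0.85) were called lower. That centring called 39 of 12766 genes higher and 3928 lower, against 233 and 231 in the main fit. All 10 macrophage markers were lower in the GT group at an unadjusted p under 0.05 (median log2 difference -1.08), though limma called none of them after adjustment. The adipocyte markers Plin1 and Lipe were called higher, with a median of 0.47 over that list, and 3 of the 8 stromal progenitor markers lower, with a median of -0.60. Their part in the Scd1 and Acacb results was not tested.

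The comparison of the TJ group with the HFD group asks what the herbal prescription changed. Elovl6 fell by 1.32 on the log2(FPKM + 1) scale (SE 0.298, limma adjusted p = 0.0320) and Acly was lower as well, at -1.25 (SE 0.309, adjusted p = 0.0381), while Scd1 rose by 0.85 ± 0.215 (adjusted p = 0.0395). Mean levels went from 6.18 ± 1.77 to 1.91 ± 0.901 FPKM for Elovl6, from 91.9 ± 11.5 to 40.5 ± 17.0 FPKM for Acly and from 3835 ± 642 to 6937 ± 1326 FPKM for Scd1 (SD, n = 3). The 3 of 10 members called stand beside 18.5% of 12807 genes, a comparison with many called genes. Scd2 had the largest estimate, -1.77 ± 0.628, and did not pass (limma adjusted p = 0.0806), and TJ replicate 2 lay far below the other TJ libraries. Me1 (-0.56 ± 0.182, adjusted p = 0.0665), Acacb (0.76 ± 0.260, adjusted p = 0.0745) and Mlxipl (0.45 ± 0.175, adjusted p = 0.0991) missed the threshold as well. In 7 of 10 members the TJ and HFD libraries did not overlap, against 51.5% of all genes. Fasn differed by -0.31 ± 0.183 and Acaca by -0.02 ± 0.140, with intervals from -0.74 to 0.12 and from -0.35 to 0.31. The median over the 10 members was -0.16 and that over all genes tested -0.14.

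The TJ calls moved with the libraries and genes in the fit. Without any 1 of the HFD replicates or without TJ replicate 1, limma called no member and no gene at all. The 3 calls were also lost without the filter on low levels (limma adjusted p = 0.0699 for Elovl6, 0.0771 for Acly and 0.370 for Scd1, with 382 genes called) and with all 12 libraries in 1 fit (adjusted p = 0.0974, 0.157 and 0.778, with 0 genes called). Over the 6 fits without 1 library the differences ran from -1.54 to -1.07 for Elovl6, -1.54 to -0.90 for Acly and 0.71 to 0.99 for Scd1. Without TJ replicate 2, the library with the highest adipocyte sum (61631 FPKM) and the lowest macrophage sum of the group (750 FPKM), Elovl6 (-1.07), Acly (-0.90), Scd2 (-0.96, limma adjusted p = 0.0120) and Scd1 (0.99) were called, beside 2023 of 12869 genes. The Scd1 call also depended on the scaling, since its difference was -0.04 after quantile normalization and 0.24 when libraries were centred on the adipocyte markers. With that centring Fasn (-0.92), Acaca (-0.63) and Me1 (-1.17) were called lower, as were Elovl6, Acly and Scd2. That fit called 6531 of 12807 genes lower and 183 higher, and Acacb was at 0.15. In the TJ group 5 of the 10 adipocyte markers were called higher than in the HFD group (median log2 difference 0.67) and 7 of the 10 macrophage markers lower (median -2.10), as were 4 of the 8 stromal progenitor markers (median -1.18). Of 7 testis germ cell markers 4 were lower at an unadjusted p under 0.05 (median -3.53), with none called by limma after adjustment. Their part in the higher Scd1 and lower Acly, Elovl6 and Scd2 levels was not tested.

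**Figure D3:**
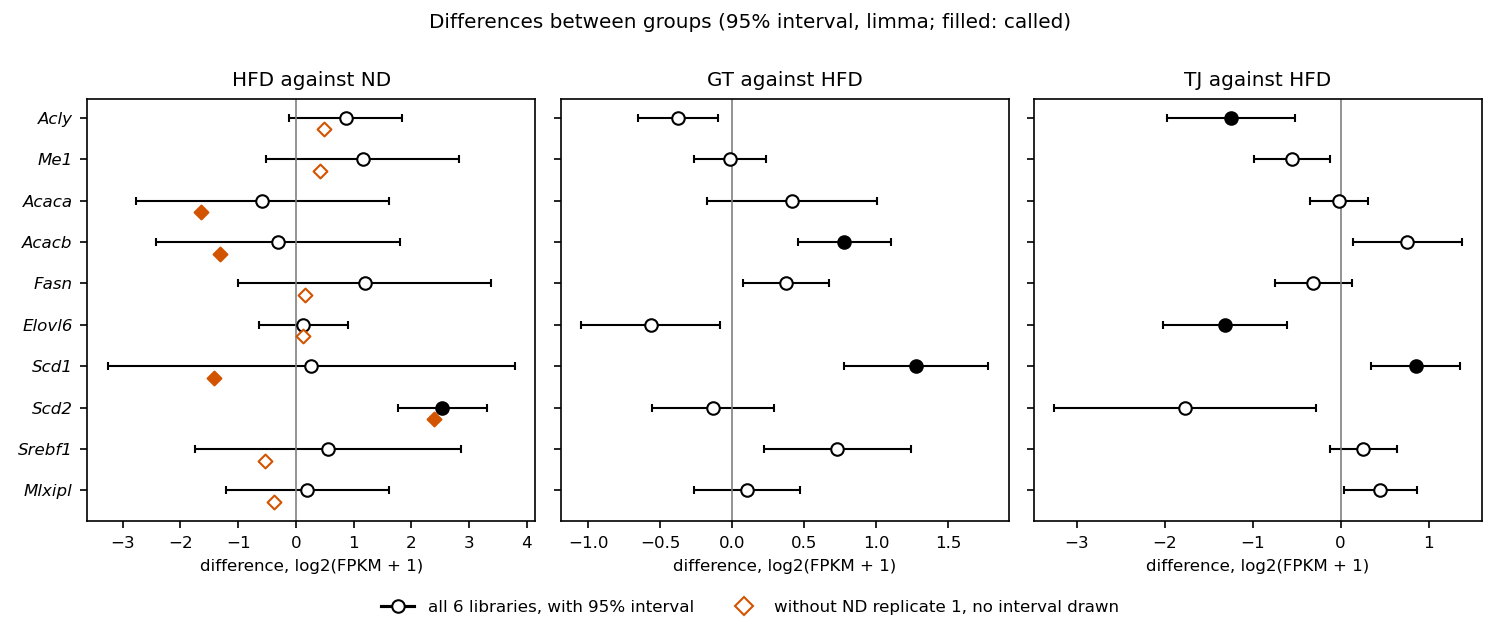
Difference between groups on the log2(FPKM + 1) scale for each member, with its 95% interval from limma, for HFD against ND, GT against HFD and TJ against HFD (the horizontal ranges differ). Filled symbols were called, and diamonds give the HFD against ND difference without ND replicate 1. Scd2 was called at 2.54 against ND, Scd1 in both extract groups at 1.28 and 0.85, Acacb with GT at 0.78, and Elovl6 and Acly with TJ at -1.32 and -1.25.

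The GT and TJ comparisons share the HFD libraries as controls, and their values are set side by side. Scd1 was called higher in both, at 1.28 with GT and 0.85 with TJ, and Acacb had 0.78 and 0.76 (0.46 with TJ without TJ replicate 2, its highest TJ library). Acly had -0.38 with GT and -1.25 with TJ, Elovl6 -0.57 and -1.32, Scd2 -0.13 and -1.77, and Fasn 0.37 and -0.31. Tested directly, TJ against GT called none of the 10 members at an adjusted p under 0.05, with 0.148% of all genes called. At an unadjusted p under 0.05 the limma test had 5 members, all lower in the TJ group: Scd2 (-1.63 ± 0.611), Acly (-0.87 ± 0.292), Elovl6 (-0.75 ± 0.241), Fasn (-0.68 ± 0.190) and Me1 (-0.54 ± 0.196), with adjusted p values from 0.126 to 0.171, beside 24.6% of all genes in either direction. Without TJ replicate 2 these differences were -0.83 for Scd2, -0.53 for Acly, -0.50 for Elovl6, -0.54 for Fasn and -0.36 for Me1, none of them called by limma. For these 5 and for Srebf1 (-0.47 ± 0.204) every TJ library lay below every GT library, as was so for 14.9% of genes, and for 34.4% in either direction.

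Against the ND group, limma called no member in the GT group or the TJ group and 0% of all genes in either, with 1 member at an unadjusted p under 0.05 in each, beside 10.6% and 10.8% of genes. These were Scd2, 2.40 ± 0.350 higher in the GT group (limma adjusted p = 0.291), and Elovl6, which had -1.19 ± 0.388 in the TJ group (adjusted p = 0.446). Libraries did not overlap with the ND group for 3 of 10 members in the GT group (Elovl6, Scd2 and Fasn) and for Elovl6 alone in the TJ group, against 29.5% and 26.1% of all genes. Without ND replicate 1 there was still no member called, beside 0.0451% and 0% of genes, with Scd2 at 2.27 ± 0.275 in the GT group (limma adjusted p = 0.0600) and Acaca at -1.22 ± 0.306 in the GT group (adjusted p = 0.106) and -1.65 ± 0.195 in the TJ group (adjusted p = 0.0915). These counts depended on the fit. Without ND replicate 2, which keeps ND replicate 1, limma called 1038 genes for GT against ND, Scd2 (2.31, adjusted p = 0.0403) among them, and 1148 genes and no member for TJ against ND. With all libraries but ND replicate 1 in 1 fit, GT against ND called 863 genes, Acaca (-1.22, limma adjusted p = 0.0260) among them, and TJ against ND called 2205 genes, Acaca (-1.65, adjusted p = 0.00787) and Elovl6 (-1.20, adjusted p = 0.0231) among them. Without ND replicate 1, Scd2 was called in the GT group with median-of-ratios scaling (2.35, limma adjusted p = 0.0426, with 401 genes called in all) and with adipocyte centring (2.39, adjusted p = 0.00657, with 237 genes). The macrophage markers were higher than in the ND group at a median log2 difference of 3.27 with GT, 9 of 10 at an unadjusted p under 0.05 (10 of 10 without ND replicate 1), and of 2.51 with TJ, 5 of 10 (median 1.43 and 5 of 10 without ND replicate 1). Without ND replicate 1 the 7 testis germ cell markers tested were all lower than in the ND group at an unadjusted p under 0.05, at a median of -4.30 with GT and -5.87 with TJ, and so were 5 of 6 mesothelial markers, at medians of -1.49 and -1.58. None of these markers was called by limma after adjustment, and their part in these differences was not tested. With all ND libraries Acaca had -0.16 ± 0.917 and -0.60 ± 0.878. Scd1 had 1.54 ± 1.46 in the GT group and 1.12 ± 1.46 in the TJ group with all ND libraries, and -0.14 ± 0.298 and -0.56 ± 0.333 without ND replicate 1, none of them past the test. In the TJ group 7 of the 10 members had a positive estimate with all ND libraries (median 0.63) and 2 without ND replicate 1 (median -0.42).

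Ratios between members within a library do not depend on the library's scaling. The Scd1/Scd2 ratio of FPKM values was 23.1 to 25.3 in the HFD group, 39.5 to 103 in the GT group and 91.0 to 393 in the TJ group. In the ND group it was 14.1 in replicate 1 and 251 and 480 in the other libraries. The HFD ratios lay below all GT and TJ ratios (exact permutation p = 0.1, two-sided, the smallest that 3 against 3 can give). The Acacb/Acaca ratio was 0.553 to 0.735 in the HFD group and 0.881 to 1.57 in the TJ group (exact permutation p = 0.1), while GT libraries spanned 0.557 to 1.04 (exact permutation p = 0.3). The Acaca/Fasn ratio was 0.223 to 0.299 in the ND group, ND replicate 1 included, and 0.0553 to 0.0863 in the HFD group (exact permutation p = 0.1). The Elovl6/Fasn ratio was 0.0106 to 0.0236 in the HFD group, 0.00781 to 0.00875 in the GT group and 0.00433 to 0.00838 in the TJ group (exact permutation p = 0.1 for each extract group against the HFD group). In the ND group it was 0.153 in replicate 1 and 0.0161 and 0.0193 in the other libraries, so that library stood apart from its group in this ratio. These 4 ratios were tested in 6 comparisons each, and no such test could pass 0.05.

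**Figure D4:**
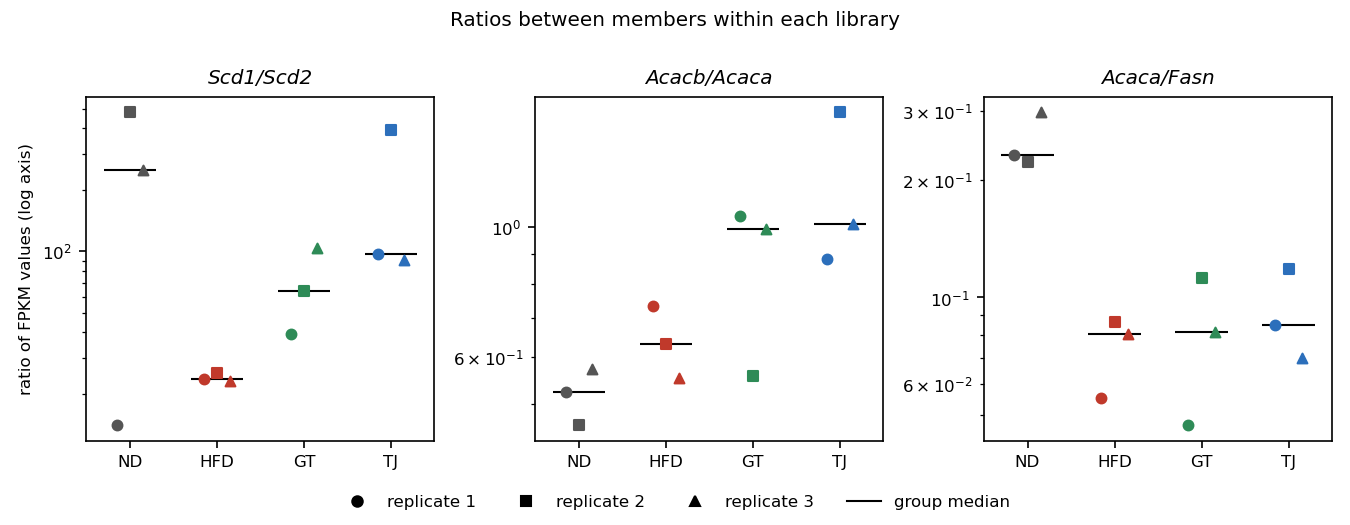
Ratio of FPKM values (log axis) of Scd1 to Scd2, Acacb to Acaca and Acaca to Fasn in each library, with marker shape for the replicate and a line at the group median. HFD libraries had Scd1/Scd2 ratios of 23.1 to 25.3, below the GT and TJ libraries, and ND libraries had the highest Acaca/Fasn ratios, 0.223 to 0.299.

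Other genes of the pathway were read from 4 lists. Against the ND group none of the tested genes of these lists was called in the HFD group, beside 1.77% of all genes. The highest and lowest estimates were Idh1, 2.27, and Slc13a5, -1.53, among genes of acetyl-CoA and NADPH supply. They were Elovl1, 1.53, and Hacd1, -0.66, among those of elongation, desaturation and fatty acid activation, and Insig1, 2.14, and Pklr, -0.86, among those of SREBP and ChREBP control. In the list of malonyl-CoA use they were Cpt1a, 1.46, and Cpt1b, -1.19. Without ND replicate 1, where 15.4% of all genes were called, the calls included the NADPH-producing enzymes Idh1 (1.24) and Pgd (0.68), the pentose phosphate enzyme Pgls (0.97), the acetate-activating Acss2 (1.05), Elovl1 (1.13) and Acsl5 (0.80), the SREBP-retaining protein Insig1 (1.54) and Cpt1a (0.65). Pcx (-0.71), Insig2 (-0.73) and Txnip (-0.72) were called lower.

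In the GT group Acsl1 (0.62 ± 0.112) and Pnpla3 (0.73 ± 0.150) were called higher than in the HFD group, where 3.63% of all genes were called, and the protease gene Mbtps2 (-0.65 ± 0.134) lower, and no gene was called in the supply and malonyl-CoA lists, whose extremes were Slc2a4 (0.96) with Pgls (-0.71) and Mlycd (0.51) with Cpt1b (-0.91). In the TJ group 2 of 13 supply genes were called, beside 18.5% of all genes, the insulin-responsive glucose transporter Slc2a4 higher (0.82 ± 0.175) and Acss2 lower (-0.88 ± 0.245). Thrsp, a gene induced with lipogenesis, was called higher (1.01 ± 0.197), and Srebf2 (-0.99 ± 0.143) and Mbtps2 (-1.06 ± 0.235) lower, among 16 control genes. Of 8 genes in the malonyl-CoA list, Mlycd (0.98 ± 0.236) and Mecr (0.73 ± 0.195) were called higher and Cpt1b (-1.23 ± 0.231) lower, and Hacd1 (0.83 ± 0.164) was the only call of 12 in the elongation list. Insig1 (-1.37 ± 0.453, limma adjusted p = 0.0679) and Fads2 (-1.24, adjusted p = 0.0547) had the lowest estimates of their lists and did not pass. The median log2 differences of the 4 lists with TJ lay between -0.18 and 0.17, against -0.14 over all genes. Each of the 4 list counts with TJ stands beside the same 18.5% of all genes called. None of these genes was called without any 1 of the HFD replicates or without TJ replicate 1.

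The pattern of the 10 members across libraries was summarised as the mean of their z scores, which was -2.12 in ND replicate 1. The 8 other genes most like it over the 12 libraries were Kctd20, Mat2a, Atrn, Hivep2, Irak1, Heatr6, Nfatc3 and Cask, with Pearson r from 0.988 to 0.993, correlations that share ND replicate 1 as their lowest point. Without that library the 8 were Zfp664, Kctd20, Gpam, Tmem179, Sntb1, St6galnac3, Ccdc127 and Bcl2l13, with r from 0.937 to 0.960 over 11 libraries. Gpam encodes the acyltransferase that starts glycerolipid synthesis, the use to which new fatty acids are put. For Scd2 alone over the 11 libraries the most alike genes were Ciita, Cyb5b, Plxnd1, C3 and Ikzf1, with r from 0.977 to 0.986, and for Scd1 they were Tshr, Aoc3, C6, Raver2 and Apcdd1, with r from 0.958 to 0.966. The same search was run for Acaca, Elovl6 and Fasn, where the highest r was 0.958 (Sdha), 0.989 (Pmpca) and 0.901 (Capzb). These libraries share their group differences and their cell makeup, so the coefficients are descriptions.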

How the data were processed

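Total RNA of eWAT was extracted with TRIzol, made into TruSeq libraries and sequenced as paired reads of 100 bases. The authors aligned the reads with STAR (version 2.3.0e in their methods and 2.4.0 in the submitters' processing notes) and deposited 1 FPKM value per gene and library from Cufflinks 2.1.1 with Ensembl release 72, noncoding regions masked, and multi-read and fragment bias correction. The methods name a human genome, but all 23474 identifiers are mouse genes, of which 22671 were given a symbol and 803 were not. Counts were not analysed here.

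Values were tested as log2(FPKM + 1) with limma 3.58.1 in R 4.3.3 (empirical Bayes with a mean-variance trend) on the 6 libraries of each comparison, for genes averaging 1 FPKM or more in them, with Benjamini-Hochberg adjustment over all genes tested. A gene was called at an adjusted p under 0.05 and a fold of at least 1.5. Differences on this scale understate those of low genes such as Elovl6. Single ratios were compared by exact permutation. The methods give 3 mice for each of the HFD and TJ groups and none is given for ND and GT in the sources used here, so p-values measure the spread between libraries.

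All 10 members were named, with the called genes and extremes of the 4 pathway lists and the 8 genes of most similar pattern. The members and lists were chosen with earlier results of these data known. Same-numbered libraries deviated together for HFD and ND (correlations 0.547, 0.342 and 0.122) and for GT and ND (0.219, 0.118 and 0.147), each above 0.1. However, HFD replicate 3 and ND replicate 2, which differ in number, correlated at 0.626. The labels give only the numbers, so a pairing is not established. The main fits were unpaired, and a replicate block was an alternative. Blocked values stand beside the HFD against ND calls. For GT and TJ against HFD the loss of calls with the block is given in the last section. Alternatives covered the pseudocount, filter, scaling, transcript length, libraries in the fit, replicate block and thresholds. Positions are from GENCODE M21 on GRCm38 and upstream bases from RefSeq on GRCm38.p6.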

Additional observations from a re-analysis of the deposited data

How the results depend on the processing

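The number of members called was 1 for HFD against ND, 2 for GT against HFD, 3 for TJ against HFD and 0 for the other comparisons. It became 0 with the replicate block for HFD against ND, GT against HFD and TJ against HFD (where the block called 0, 5 and 1198 genes in all), and the block changed no count elsewhere; same-numbered libraries did not deviate together outside the comparisons of HFD and GT with ND. It was 0 without the filter and with all 12 libraries in 1 fit for GT against HFD and TJ against HFD, and 0 without the variance trend for GT against HFD. Centring on the adipocyte markers gave 0 for HFD against ND and 6, all lower, for TJ against HFD, where it moved the median of all genes from -0.14 to -0.75. Of all genes it called 1 for HFD against ND, and 6531 of 12807 lower and 183 higher for TJ against HFD. Quantile normalization and an adjusted p under 0.1 each gave 5 for TJ against HFD, beside 2663 and 3508 of 12807 genes. Leaving out 1 replicate gave 0 to 4 for HFD against ND, 0 to 2 for GT against HFD, 0 to 4 for TJ against HFD and 0 to 1 for GT against ND, the 1 (Scd2) without ND replicate 2. In the same order, these fits called 0 to 2098, 4 to 1107, 0 to 3412 and 0 to 1038 genes. Adipocyte centring gave 3 for GT against HFD, 1 higher and 2 lower, beside 39 genes higher and 3928 lower of 12766. The cause of these changes was not tested. Array weights did not converge in any comparison, so they gave no value.

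Alternatives added after the data were seen left out ND replicate 1. With all the other libraries in 1 fit, the counts were 4 for HFD against ND, 1 for GT against HFD, 5 for TJ against HFD, 1 for GT against ND and 2 for TJ against ND. In the same order, 2649, 131, 2939, 863 and 2205 of 13120 genes were called. For HFD against ND without ND replicate 1 the count was 4 (1 higher, 3 lower), and the same without the variance trend, 6 with adipocyte centring (4 higher, 2 lower), 3 with median-of-ratios scaling (1 higher, 2 lower, Scd1 not called), 3 when HFD replicate 2 was left out too (1 higher, 2 lower, Acacb not called) and 2 with the replicate block (1 higher, 1 lower). In the same order, 2098, 1959, 4423, 1697, 875 and 501 genes were called, of 13661 tested (13667 without HFD replicate 2). Adipocyte centring called Me1, Fasn and Acly higher and did not call Acacb. For GT against ND the count of members was 1 with either scaling, beside 237 genes with adipocyte centring and 401 with median-of-ratios scaling.

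Signs of log2 differences also turned. Among members called in the main fit of a comparison, only Scd1 in TJ against HFD did so. Some members called in another fit alone had the opposite sign elsewhere. Acacb for HFD against ND, called at -1.31 without ND replicate 1, was 0.33 without ND replicate 3. For HFD against ND without ND replicate 1, Scd1 turned to -1.41 (-1.55 without HFD replicate 2 too, -0.82 with adipocyte centring, -1.46 with median-of-ratios scaling and -1.33 with the block), Srebf1 to -0.54 (-0.61 without HFD replicate 2, -0.58 with median-of-ratios scaling and -0.61 with the block) and Mlxipl to -0.38 (-0.51, -0.42 and -0.37), with the first value of each the same without the trend and with all other libraries. Adipocyte centring of all 6 libraries gave Mlxipl -0.33, Elovl6 -0.40 and Scd1 -0.26. Elovl6 was -0.0099 with median-of-ratios scaling, -0.029 with the length trend removed, -0.0084 without HFD replicate 2 and -0.021 when ND replicate 1 was left out as well. Acacb was 0.070 without ND replicate 2 and 0.33 without ND replicate 3. For GT against HFD, adipocyte centring gave Mlxipl -0.37, Fasn -0.097 and Acaca -0.054, median-of-ratios scaling gave Me1 0.11, and leaving out 1 replicate gave Mlxipl -0.018, Me1 0.0056 and 0.049 and Scd2 0.013. For TJ against HFD, adipocyte centring gave Mlxipl -0.16 and Srebf1 -0.35, quantile normalization gave Scd1 -0.039 and Acaca 0.075, removing the length trend gave Fasn 0.079 and Acaca 0.36, median-of-ratios scaling gave Acaca 0.12, and leaving out 1 replicate gave Acaca 0.0059 to 0.045. For GT against ND without ND replicate 1, Acacb was -0.53 (-0.41 with adipocyte centring, -0.45 with median-of-ratios scaling and -0.44 with the block), Mlxipl -0.28 (-0.16, -0.20 and -0.30) and Scd1 -0.14 (-0.015 and, with median-of-ratios scaling, -0.054), while adipocyte centring of all 6 libraries gave Acacb -0.53, Mlxipl -0.70 and Acly -0.52, and leaving out 1 replicate gave Acaca 0.090, 0.31 and 0.42. For TJ against ND without ND replicate 1, then with adipocyte centring and with median-of-ratios scaling, Acacb was -0.55, -0.57 and -0.47, Fasn -0.16, -0.18 and -0.077, Me1 -0.14, -0.17 and -0.063, Scd1 -0.56, -0.59 and -0.48, and Srebf1 -0.28, -0.30 and -0.20. Adipocyte centring of all 6 libraries gave Acacb -0.69, Fasn -0.26, Me1 -0.54, Mlxipl -0.49, Scd1 -0.027, Scd2 -0.38 and Srebf1 -0.33. For TJ against GT, Acacb was 0.0035 with median-of-ratios scaling and 0.30 with the length trend removed. Depth was 9800000 to 19100000 fragments. Over the fits without 1 replicate, the values of members with a turned sign ran, for HFD against ND, from -0.38 to 0.70 for Mlxipl, -0.54 to 1.24 for Srebf1, -0.0084 to 0.35 for Elovl6, -1.41 to 1.17 for Scd1 and -1.31 to 0.33 for Acacb, whose value without ND replicate 1 and HFD replicate 2 was -1.37. They ran, for GT against HFD, from -0.018 to 0.23 for Mlxipl, -0.097 to 0.049 for Me1 and -0.31 to 0.013 for Scd2, and for TJ against HFD from -0.12 to 0.045 for Acaca. For GT against ND they ran from -1.22 to 0.42 for Acaca, -0.53 to 1.10 for Acacb, -0.28 to 0.80 for Mlxipl and -0.14 to 2.45 for Scd1, and for TJ against ND from -0.55 to 1.08 for Acacb, -0.16 to 1.46 for Fasn, -0.14 to 1.16 for Me1, -0.56 to 2.02 for Scd1 and -0.28 to 1.501 for Srebf1. For TJ against GT they ran from -0.32 to 0.17 for Acacb.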
